A study of Mus musculus with 22 samples.

Results

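ABT-888 was added to ethanol on the last day of an ethanol course, and ribosome-bound RNA of the prefrontal cortex (PFC) was compared between mice that received it and mice that received ethanol alone. The comparison uses 8 of the 22 libraries of the study, 4 EtOH + ABT-888_TRAP and 4 EtOH_TRAP, chosen by the treatment and sample type in their labels. All animals were male transgenic mice of 8 to 12 weeks that carried a ribosomal protein, Rpl10a, fused to EGFP. Its expression was driven by the CaMKIIα promoter through a tetracycline-controlled transactivator, so the tagged ribosomes come from every cell in which that promoter is active. EtOH mice (2, 5, 8 and 9) received ethanol i.p. in 2 injections per day, set 2 h apart, for 4 days at a daily dose of 2 g/kg. EtOH + ABT-888 mice (3, 6, 10 and 11) received the same ethanol dose, together with ABT-888 at 25 mg/kg on day 4 only. The study reports a lower mean blood ethanol with ABT-888 than with ethanol alone, with wide spreads. The doses were therefore equal, but equal exposure is not shown. Tissue was collected 2 h after the last injection. Control mice (1, 4 and 7) were given saline, and a total-RNA library was made from the same lysate of every mouse. No mice received ABT-888 without ethanol, so the drug was measured only on top of ethanol.

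ABT-888 (veliparib) inhibits PARP1 and PARP2, nuclear enzymes that bind broken DNA and build chains of ADP-ribose from NAD on themselves, on histones and on repair proteins. PARP1 also acts at chromatin and promoters, which is why an inhibitor can be asked about transcription as well as about repair. Translating ribosome affinity purification (TRAP) pulls the tagged ribosomes down with an antibody to EGFP and sequences the RNA bound to them, so a level in TRAP is a share of ribosome-bound RNA and not a rate of protein synthesis. RNA of cells that carry no tag can stick to the beads and is then read as background.

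The TRAP libraries held 13822758 to 22002618 counted reads in EtOH_TRAP and 6570957 to 21080724 in EtOH + ABT-888_TRAP. The levels of the drug's targets overlapped between the groups. *Parp1* measured 86.5, 38.0, 31.4 and 105 normalized CPM, counts scaled to a common library size, in EtOH mice 2, 5, 8 and 9, and 109, 82.2, 17.6 and 82.7 CPM in EtOH + ABT-888 mice 3, 6, 10 and 11. Mouse 10 held the lowest level and mouse 3 the highest, and the groups overlapped (log2 fold change 0.15, SE 0.46, 95% interval -0.84 to 1.15). *Parp2* measured 13.7 ± 3.91 CPM in EtOH_TRAP and 14.9 ± 4.53 CPM in EtOH + ABT-888_TRAP (SD, n = 4 each). An inhibitor of the enzymes need not alter their RNA, so neither gene checks whether the drug reached its target.

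*Camk2a*, whose promoter drives the tag, measured 2528 ± 215 CPM in EtOH_TRAP and 2249 ± 456 CPM in EtOH + ABT-888_TRAP (SD, n = 4 each; log2 fold change -0.17, SE 0.16). The labelled tissue is cortex, but the TRAP libraries were rich in markers of striatal projection neurons, the principal cells of the striatum. The 16 striatal markers, among them *Penk*, *Adora2a* and *Drd2*, summed to between 15661 and 20145 CPM in the 8 TRAP libraries and to between 1974 and 3742 CPM in the total-RNA of the same mice. The 20 markers of cortical excitatory neurons summed to between 7309 and 8743 CPM in TRAP and to between 6116 and 7174 CPM in total-RNA. Both sets of neuron markers overlapped between the treatment groups.

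Mice of one group differed about as much as mice of different groups, and most within EtOH + ABT-888_TRAP. The first principal component of the 8 libraries carried 30.3% of the variance and ran from mouse 3 (-64.2) to mouse 10 (53.8), both of EtOH + ABT-888_TRAP. The second carried 22.1% and set mouse 6 (83.2) apart from the other 7 libraries, which lay between -25.9 and -1.08. Mouse 6 was also the shallowest library and gave 2.17% of its reads to *Gm42418*, a gene that overlaps ribosomal RNA sequence, against 0.0426% to 0.183% in the other 7. Across transcripts, Pearson's r was 0.950 to 0.971 between EtOH_TRAP libraries (median 0.9549) and 0.924 to 0.956 between EtOH + ABT-888_TRAP libraries (median 0.9405). Between libraries of different groups it was 0.930 to 0.977 (median 0.95).

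With ABT-888 added, 0 of 14072 transcripts passed an adjusted p of 0.05 (background, 0% called; edgeR's quasi-likelihood test, smallest adjusted p = 0.9999). At an unadjusted p under 0.05 the same test gave 136 transcripts (0.966%), 87 higher (0.618%) and 49 lower (0.348%) with ABT-888. DESeq2, limma voom and edgeR's exactTest also called 0 transcripts, with 186, 136 and 195 at an unadjusted p under 0.05. The study itself reports that its direct comparison of the 2 treatments gave no result at an adjusted p under 0.05. The levels of the 4 EtOH + ABT-888 mice all lay above those of the 4 EtOH mice in 73 transcripts (0.519%) and all below in 71 (0.505%). The number at an unadjusted p under 0.05 moved most with mouse 10. Without EtOH + ABT-888_TRAP replicate 10 it rose to 914 (6.5%), with 117 of the 136 among them. Without EtOH_TRAP replicate 9 it was 319 (2.27%), and 0 were called in both fits. Without EtOH + ABT-888_TRAP replicates 3 and 6 together, which hold the extremes of the first and second component, it was 124, again with 0 called.

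The differences were small where the counts could resolve them. The median log2 fold change over all 14072 transcripts was 0.00, with quartiles of -0.14 and 0.16, and 7133 transcripts (50.7%) lay above 0. The median absolute log2 fold change was 0.15, beside 0.31 for EtOH_TRAP against Control_TRAP, a comparison that shares the EtOH_TRAP libraries and calls 737 transcripts (5.24%), though 84 without Control_TRAP replicate 4, 1550 without EtOH_TRAP replicate 9 and 1372 with exactTest. Of 411 transcripts beyond 1 on the log2 scale, 261 had a mean under 1 CPM. Among the 10442 transcripts with a mean of at least 5 CPM, 12 lay beyond 1 and 337 (3.23%) beyond 0.5. For 9199 of these (88.1%) the 95% interval stayed between -1 and 1, and for 2728 (26.1%) between -0.5 and 0.5, so for most well-read transcripts the interval left out differences beyond 1 on the log2 scale, while smaller ones were not resolved. The biological coefficient of variation was 0.323 in TRAP and 0.202 in the total-RNA of the same mice.

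Since single transcripts did not separate the groups, 49 gene lists were described by their medians, the counts of members above and below 0, and the mean log2 CPM of the members in each library. In 25 lists the median log2 fold change was above 0 and in 24 below, and it passed 0.1 in either direction in 15. In 0 of 49 lists did the mean level separate the groups. The largest medians above 0 were those of oligodendrocyte, mural cell, microglial and endothelial markers (0.84, 0.75, 0.52 and 0.44). Lists of ionotropic receptors, channels and synaptic machinery lay close to 0 and the proteasome list slightly below.

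**Figure D1:**
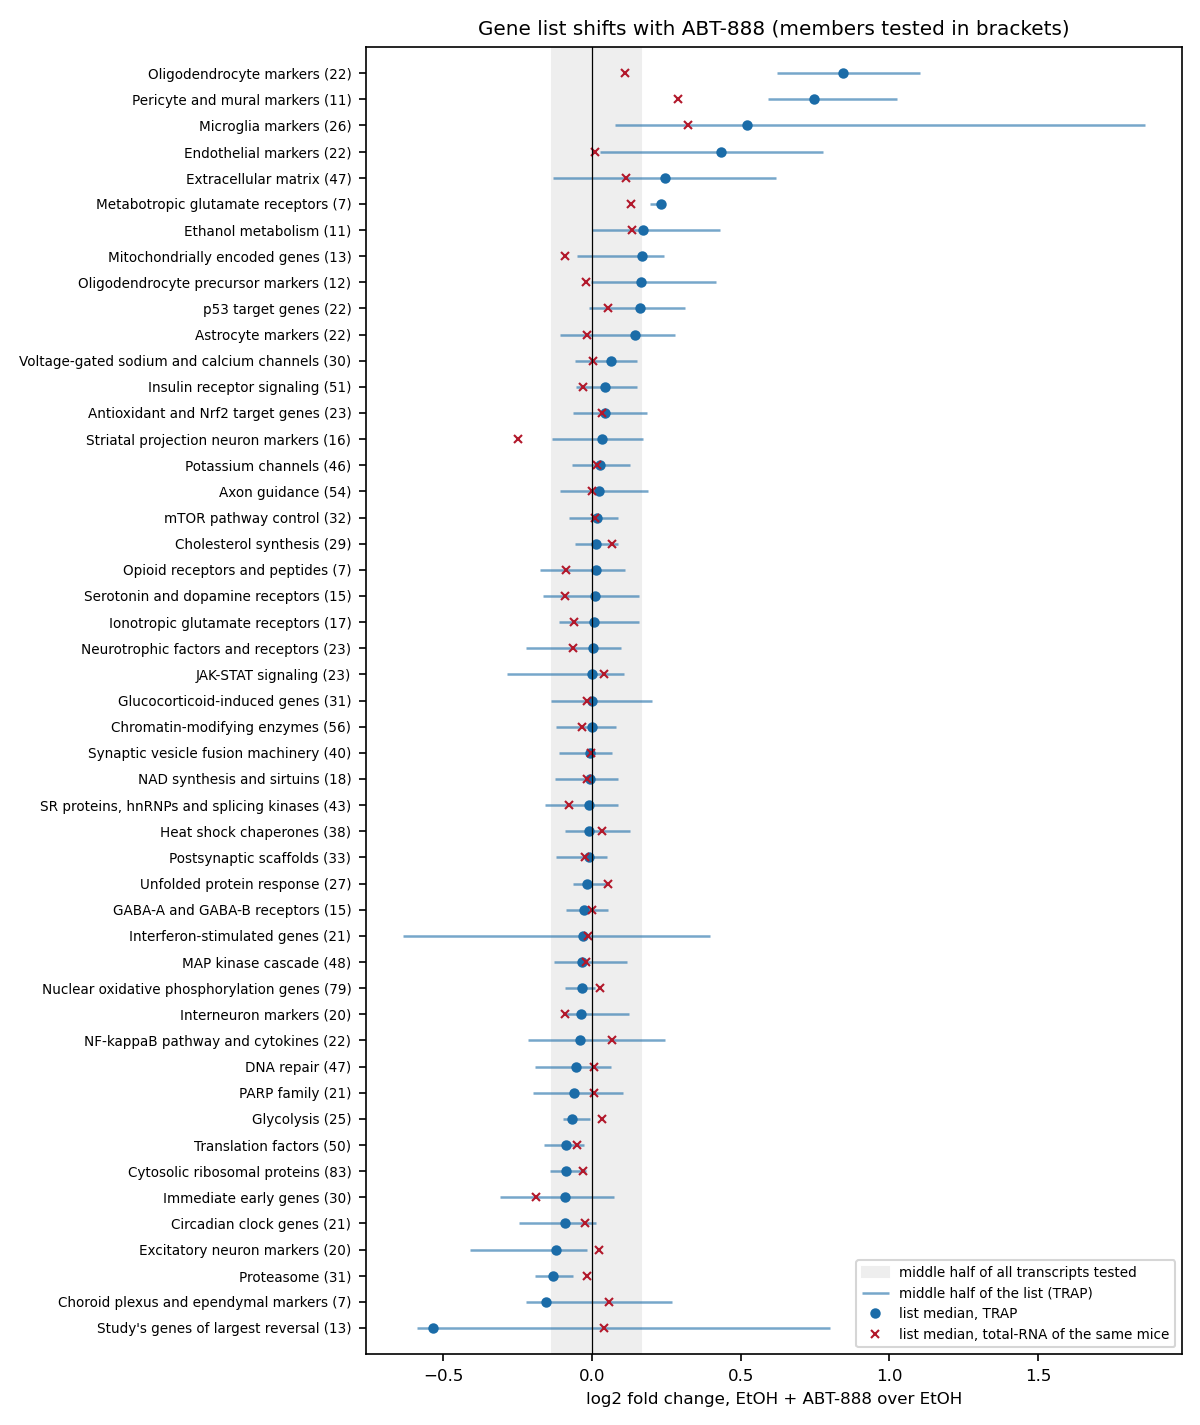
Median log2 fold change of EtOH + ABT-888 over EtOH (x axis) for each of 49 gene lists (y axis, members tested in brackets). Circles are TRAP medians with a line from the lower to the upper quartile of the members, crosses are the total-RNA medians of the same mice, and the grey band runs between the quartiles of all 14072 transcripts in TRAP (-0.14 to 0.16). Oligodendrocyte and mural cell markers lie furthest above 0 (0.84 and 0.75), and most lists fall within the grey band.

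Oligodendrocytes are the myelin-forming cells of the brain. Their 22 markers had a median log2 fold change of 0.84 (0.22 to 1.54), and all 22 lay above 0, where 50.7% of all transcripts did. *Ermn*, which encodes the myelin-associated cytoskeletal protein ermin, measured 2.49, 0.927, 2.15 and 2.94 CPM in EtOH mice 2, 5, 8 and 9 and 8.36, 2.73, 3.68 and 9.64 CPM in EtOH + ABT-888 mice 3, 6, 10 and 11 (log2 fold change 1.53, SE 0.49, 95% interval 0.48 to 2.59). *Mog*, a glycoprotein of the outer myelin surface, measured 6.35, 2.83, 3.71 and 2.94 CPM and then 12.1, 3.34, 4.25 and 15.1 CPM (log2 fold change 1.14, SE 0.48). In both genes mice 3 and 11 were high, and mice 6 and 10 lay within or next to the EtOH range. *Mbp*, myelin basic protein, measured 227 ± 64.1 CPM in EtOH_TRAP and 359 ± 204 CPM in EtOH + ABT-888_TRAP (SD, n = 4 each). Of the 22 markers, 2 had an unadjusted p under 0.05 (9.09% beside 0.966% of all transcripts) and 0 were called.

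The summed level of the oligodendrocyte markers was 856, 418, 504 and 393 CPM in EtOH mice 2, 5, 8 and 9 and 1042, 426, 561 and 1668.5 CPM in mice 3, 6, 10 and 11. It was 401.8 to 541 CPM in Control_TRAP, so mice 2, 3, 10 and 11 stood above all 3 Control libraries, mice 3 and 11 by the most. Leaving out mouse 11 brought the list's median to 0.36, and leaving out EtOH mouse 2 brought it to 1.13. In the total-RNA of the same mice the median was 0.11. The interaction of ABT-888 with sample type had a median of 0.73 over the 22 markers, and 0.63 with a term for each mouse (the replicate block).

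Mural cells wrap capillaries and arterioles. Of 13 markers of pericytes and mural cells, 11 were tested, all 11 lay above 0, and their median was 0.75. *Rgs5*, a regulator of G-protein signaling and a common pericyte marker, measured 6.01, 2.22, 4.35 and 3.55 CPM in EtOH_TRAP and 15, 6.52, 5.39 and 7.15 CPM in EtOH + ABT-888_TRAP (log2 fold change 1.08, SE 0.41). *Kcnj8*, a pore subunit of ATP-sensitive potassium channels, held 2 reads in all EtOH_TRAP libraries and 23 in all EtOH + ABT-888_TRAP libraries, a ratio of 14.9 with a counting interval of 3.69 to 131 that leaves out the variation between mice. Mouse 11 held 17 of the 23 reads, and without it the ratio was 5.56 (0.994 to 56.3). The median stayed between 0.46 and 1.33 as each library was left out in turn, lowest without mouse 3 and highest without EtOH mouse 2.

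Microglia are the resident immune cells of the brain. Their 26 markers had a median of 0.52, with 20 above 0 (50.7% of all transcripts were) and 4 at an unadjusted p under 0.05 (0.966% of all transcripts were). The median was 0.12 without mouse 3 and 1.06 without EtOH mouse 2. *P2ry12*, a purinergic receptor of resting microglia, measured 0.483, 0.0927, 0.537 and 0.201 CPM in EtOH_TRAP and 3.31, 1.06, 0.311 and 1.45 CPM in EtOH + ABT-888_TRAP (log2 fold change 2.20, SE 0.85). Only mouse 10 of the second group overlapped the first. The summed level ran from 23.3 to 101 CPM in EtOH_TRAP and from 30.2 to 119 CPM in EtOH + ABT-888_TRAP, where the total-RNA of the 8 mice held 299 to 558 CPM, and 9 of the 26 markers were at 0 in at least 1 of the 8 TRAP libraries.

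The 22 endothelial markers had a median of 0.44 with 17 above 0, and the median was 0.08 without mouse 3 and 1.11 without EtOH mouse 2. *Adgrl4*, an adhesion receptor of blood vessel endothelium, measured 0.691, 0.834, 1.32 and 0.268 CPM in EtOH_TRAP and 2.21, 2.73, 1.71 and 2.85 CPM in EtOH + ABT-888_TRAP, without overlap (log2 fold change 1.57, SE 0.58, 95% interval 0.34 to 2.81). The shift lay in endothelial genes at low level: over the 5 markers with a mean of at least 5 CPM the median was -0.01. The 22 astrocyte markers had a median of 0.15 with 15 above 0, and the sign turned without mouse 3 (-0.12) or EtOH mouse 5 (-0.02), while without EtOH mouse 2 the median was 0.52. The 12 markers of oligodendrocyte precursors had a median of 0.17 with 9 above 0 (0.05 without mouse 3 and 0.33 without mouse 10). *Agt*, the angiotensin precursor made by astrocytes, went against its list, with 9.32, 0.463, 1.03 and 3.35 CPM in EtOH_TRAP and 1.58, 0.758, 0.674 and 1.45 CPM in EtOH + ABT-888_TRAP (log2 fold change -1.64, SE 0.78). In total-RNA *Agt* had a log2 fold change of -1.3 (unadjusted p = 0.00312 in edgeR's quasi-likelihood test).

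These glial and vascular lists were depleted in TRAP relative to total-RNA in Control mice, with medians of -2.95 for oligodendrocyte, -2.75 for mural, -3.41 for microglial, -2.94 for endothelial and -3.17 for astrocyte markers on the log2 scale. In bulk samples, fewer cells of a type and less RNA per cell cannot be told apart, and in TRAP neither can be told apart from untagged RNA that stayed on the beads. Over all transcripts the shift above 0 lay mainly in one end of this ratio. In the decile of transcripts with the lowest ratio of TRAP to total-RNA in Control, the median log2 fold change with ABT-888 was 0.25 and 66.4% lay above 0, and in the next decile the median was 0.04. From the fourth decile upward the medians lay between -0.04 and 0.01. With the mean level of the astrocyte, microglia, oligodendrocyte, endothelial and mural markers as a covariate, 276 transcripts had an unadjusted p under 0.05, of which 101 were higher and 175 lower, and 0 were called. The part of untagged RNA in the list shifts was not tested.

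**Figure D2:**
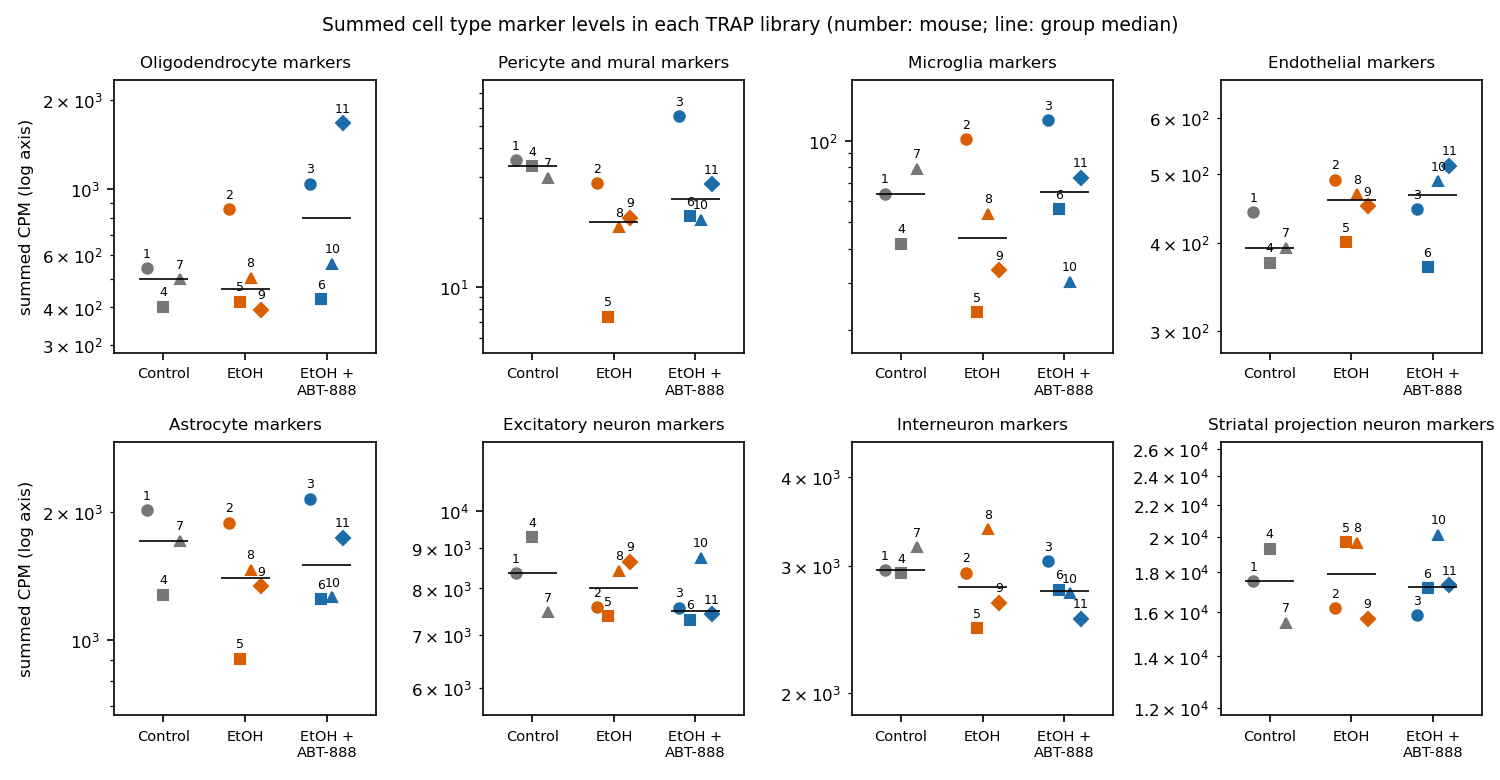
Summed CPM (log axis) of 8 lists of cell type markers in each TRAP library of Control (grey), EtOH (orange) and EtOH + ABT-888 (blue), with the mouse number beside each point and a line at the group median. Oligodendrocyte levels of mice 2, 3, 10 and 11 stand above all Control libraries, microglial and mural levels are highest in mouse 3, and the neuron marker lists in the lower row overlap among the 3 groups.

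The 20 excitatory neuron markers had a median of -0.12 with 15 below 0, and the mean level of the list was 5.98, 5.11, 5.53 and 6.5 log2 CPM in EtOH mice and 5.97, 5.58, 5.73 and 5.64 log2 CPM in EtOH + ABT-888 mice. The median was 0.11 without EtOH mouse 9 and -0.30 without EtOH mouse 5. *Cux2*, a transcription factor of upper cortical layers, had the smallest p of the list, with 59.0 ± 27.4 CPM in EtOH_TRAP and 35.9 ± 15.5 CPM in EtOH + ABT-888_TRAP (SD, n = 4 each; log2 fold change -0.72, SE 0.36). The 20 interneuron markers had a median of -0.04 (0.05 without EtOH mouse 2 and 0.08 without mouse 10), and *Lhx6*, a transcription factor of interneurons born in the medial ganglionic eminence, measured 15.8, 8.11, 9.18 and 8.17 CPM and then 6.71, 4.70, 7.00 and 3.82 CPM, without overlap (log2 fold change -0.89, SE 0.33). Striatal projection neuron markers had a median of 0.03 in TRAP and -0.25 in the total-RNA of the same mice. Within that list *Syndig1l*, which encodes a membrane protein enriched in striatum, measured 203, 234, 259 and 237 CPM in EtOH_TRAP and 314, 308, 300 and 290 CPM in EtOH + ABT-888_TRAP (log2 fold change 0.37, SE 0.14).

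Receptors and channels of the synapse lay within a narrow range. List medians were 0.01 for ionotropic glutamate receptors, -0.03 for GABA receptors, 0.06 for voltage-gated sodium and calcium channels, 0.03 for potassium channels, -0.01 for the synaptic vesicle fusion machinery and -0.01 for postsynaptic scaffolds. Of 40 vesicle fusion genes, 37 had a 95% interval between -1 and 1. Metabotropic glutamate receptors had a median of 0.23 with 6 of 7 members above 0 and 0 at an unadjusted p under 0.05, and the median was 0.12 without EtOH mouse 2 and 0.40 without EtOH mouse 9. *Grm5*, which couples to phospholipase C and is the most abundant per kilobase, measured 740 ± 186 and 827 ± 125 CPM (SD, n = 4 each; log2 fold change 0.16, SE 0.19). *Grin2b*, a subunit of NMDA receptors, measured 1258 ± 245 and 1511 ± 184 CPM (log2 fold change 0.26, SE 0.17). Among the potassium channels *Kcnd3*, a subunit of transient A-type channels, measured 82.1, 54.3, 57.0 and 45.2 CPM and then 47.6, 34.1, 38.6 and 47.8 CPM (log2 fold change -0.51, SE 0.21). *Drd5*, a dopamine receptor at low level here, measured 0.28 ± 0.228 and 1.24 ± 0.42 CPM without overlap (log2 fold change 2.07, SE 0.86).

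Activity-regulated and hormone-regulated genes were spread on both sides of 0. Of 30 immediate early genes, transcription factors and effectors induced within minutes of neuronal activity, 18 lay below 0 and the median was -0.09, which was -0.35 without mouse 3 and 0.02 without mouse 11. *Fosb* measured 54.4, 28.6, 26.9 and 20.5 CPM in EtOH mice and 30.0, 18.2, 15.9 and 21.4 CPM in EtOH + ABT-888 mice (log2 fold change -0.61, SE 0.30), and *Egr1* measured 414, 269, 436 and 165 CPM and then 466, 211, 168 and 181 CPM (log2 fold change -0.33, SE 0.34). The circadian clock list had a median of -0.09 with 15 of 21 below 0, which was -0.28 without mouse 10 and 0.06 without mouse 3. In it *Bhlhe40*, a repressor in the clock, measured 64.9 ± 13.9 and 50.0 ± 15.4 CPM (SD, n = 4 each). The 31 glucocorticoid-induced genes had a median of 0.00, with 16 above 0 and 15 below. The median was 0.25 without EtOH mouse 2 and -0.05 without EtOH mouse 5. In that list EtOH_TRAP against Control_TRAP had a median of 0.79 and EtOH + ABT-888_TRAP against Control_TRAP a median of 0.84, and both use the same Control libraries.

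PARP enzymes and their pathways were read for effects of the inhibitor on its own system. The 21 PARP family members had a median of -0.06 (0.02 without EtOH mouse 2), with 9 above 0 and 12 below. *Parp11*, a mono-ADP-ribosyltransferase, had the smallest p of the family and measured 6.91, 6.95, 6.01 and 10.2 CPM in EtOH_TRAP and 17.8, 15.2, 2.96 and 14.8 CPM in EtOH + ABT-888_TRAP, where mouse 10 lay below and the other 3 mice above every EtOH mouse (log2 fold change 0.74, SE 0.43). Its Control_TRAP level was 22.8 ± 2.30 CPM (SD, n = 3). The 18 genes of NAD synthesis and of the NAD-dependent sirtuins had a median of -0.01, with 9 on each side. *Cd38*, an enzyme that breaks NAD down, measured 1.3 ± 1.31 and 0.554 ± 0.404 CPM (log2 fold change -1.14, SE 0.88).

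DNA repair genes lay slightly below 0, with a median of -0.05 (0.01 without EtOH mouse 5) and 28 of 47 below, and 36 of the 47 had a 95% interval between -1 and 1. *Ogg1*, the glycosylase that removes oxidized guanine, measured 4.35 ± 1.15 CPM in EtOH_TRAP and 2.93 ± 0.335 CPM in EtOH + ABT-888_TRAP (SD, n = 4 each; log2 fold change -0.57, SE 0.37). The mean level of the list was 3.93 ± 0.0758 log2 CPM in EtOH_TRAP and 3.83 ± 0.104 log2 CPM in EtOH + ABT-888_TRAP. Targets of p53, which are induced by DNA damage, had a median of 0.16 with 15 of 22 above 0, and the median stayed between 0.06 and 0.25 as each library was left out. *Zmat3*, an RNA-binding p53 target, measured 164 ± 13.2 and 192 ± 40.5 CPM (log2 fold change 0.22, SE 0.17). In these 4 lists 0 members had an unadjusted p under 0.05 in TRAP, where 0.966% of all transcripts did, so the count is near the background.

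**Figure D3:**
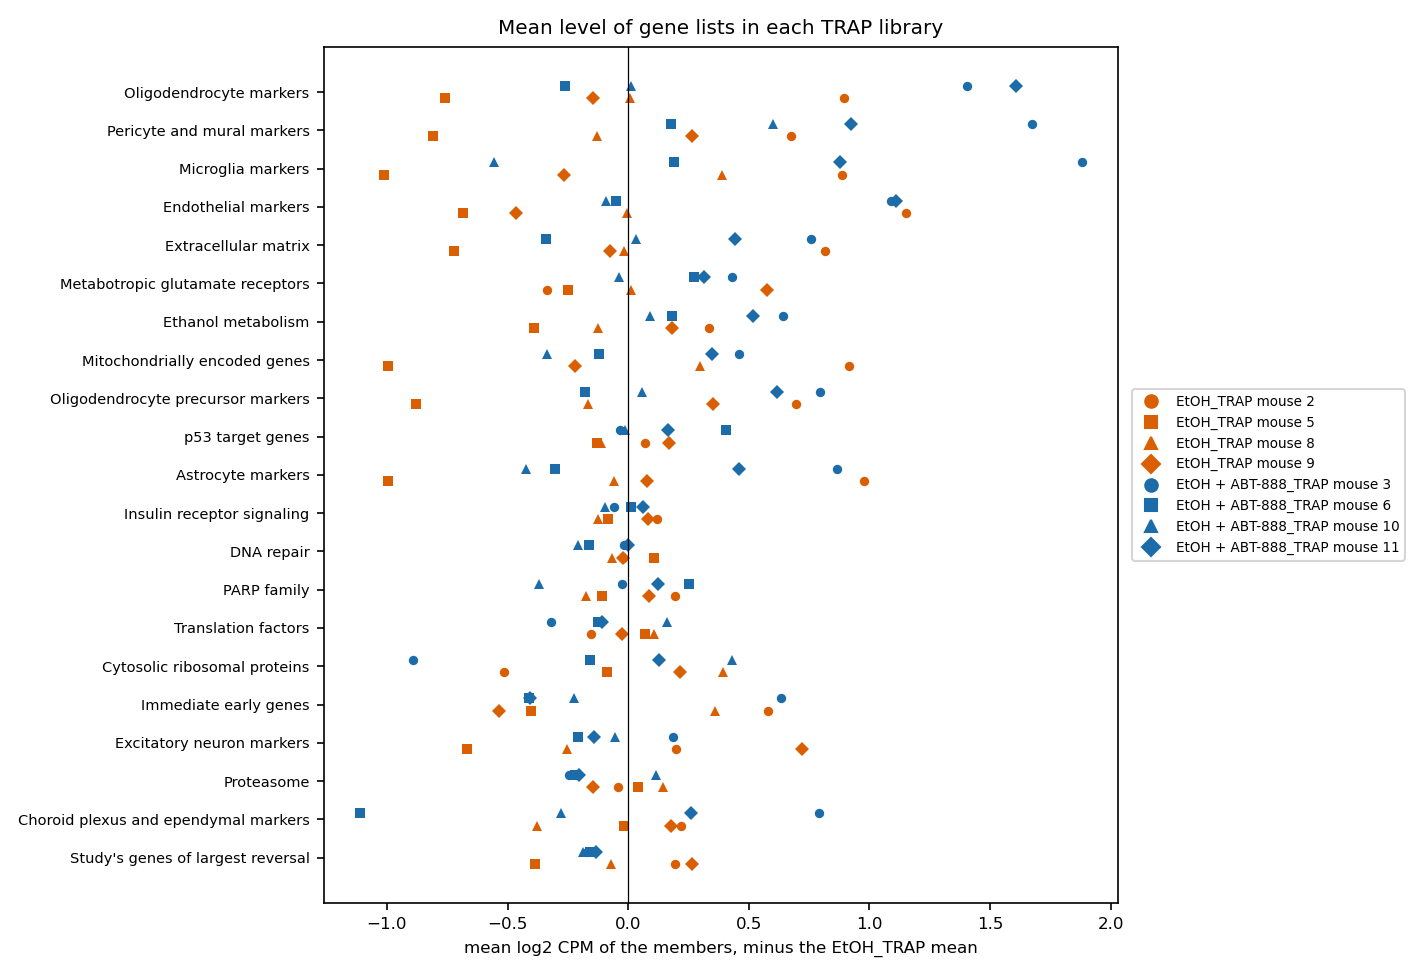
Mean log2 CPM of the members of 21 gene lists in each TRAP library, drawn relative to the mean of the 4 EtOH_TRAP libraries (x axis). Orange symbols are EtOH mice and blue symbols EtOH + ABT-888 mice, and in every list shown the groups overlap. Mice 2, 3 and 11 lie high in most glial and vascular lists, mouse 5 lies low, and mouse 10 stands apart from the other 3 EtOH + ABT-888 mice in the proteasome list.

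The proteasome degrades proteins marked by ubiquitin, and 28 of its 31 subunit and assembly genes lay below 0 with ABT-888, with a median of -0.13 (-0.32 to 0.02) beside 0.00 over all transcripts. All 31 had a 95% interval between -1 and 1. The mean level of the list was 6.44, 6.52, 6.63 and 6.33 log2 CPM in EtOH mice 2, 5, 8 and 9 and 6.24, 6.26, 6.59 and 6.28 log2 CPM in mice 3, 6, 10 and 11. Mice 3, 6 and 11 lay below all 4 EtOH mice, and mouse 10 lay among them. Without mouse 10 the median was -0.25, and without mouse 3 it was -0.07. *Psmd7*, a lid subunit of the regulatory particle, measured 110 ± 13.6 and 88.5 ± 20.9 CPM (SD, n = 4 each; log2 fold change -0.32, SE 0.19). *Psma4*, an alpha ring subunit, measured 71.1 ± 9.61 and 59.2 ± 6.34 CPM (log2 fold change -0.27, SE 0.17), and *Psmc5*, an ATPase of the base, measured 154 ± 9.85 and 134 ± 15.3 CPM (log2 fold change -0.21, SE 0.15). In total-RNA the list median was -0.02.

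Of 50 translation factors, 41 lay below 0 with a median of -0.09, which was -0.02 without mouse 3 and -0.22 without mouse 10. Of 83 ribosomal protein genes, 66 lay below 0 with a median of -0.09. *Eif2b3*, a subunit of the exchange factor that recharges eIF2, measured 15, 15.8, 15.2 and 13.9 CPM in EtOH_TRAP and 7.57, 5.15, 11.9 and 12.7 CPM in EtOH + ABT-888_TRAP, without overlap (log2 fold change -0.67, SE 0.29). *Eif4a1*, the helicase of cap-dependent initiation, measured 181 ± 29.6 and 146 ± 37.5 CPM (log2 fold change -0.32, SE 0.20). Ribosomal protein genes had a mean of 5.60 log2 CPM in mouse 3 and 5.98 in mouse 2 but 6.34 to 6.93 in the other 6. Leaving out mouse 3, EtOH mouse 8 or EtOH mouse 9 brought their median to 0.11, 0.04 or 0.00. Leaving out mouse 10 or EtOH mouse 2 brought it to -0.29 or -0.25. Nuclear genes of oxidative phosphorylation had a median of -0.04 with 54 of 79 below 0, and 78 of the 79 had a 95% interval between -1 and 1. The median was 0.03 without mouse 3, 0.02 without mouse 6, 0.06 without EtOH mouse 8 and -0.13 without mouse 10. In *Ndufv1*, a flavin-binding subunit of complex I, the groups did not overlap, at 192, 172, 153 and 157 CPM and then 146, 135, 145 and 130 CPM (log2 fold change -0.28, SE 0.15). Glycolysis had a median of -0.07 with 19 of 25 below 0 (-0.01 without mouse 6 and -0.12 without mouse 10).

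Chaperones, which refold damaged proteins, had a median of -0.01 with 18 of 38 above 0, and the unfolded protein response a median of -0.02 with 11 of 27 above 0. *Dnajc7*, a co-chaperone of Hsp70 and Hsp90, measured 234, 303, 275 and 239 CPM and then 174, 197, 241 and 208 CPM (log2 fold change -0.36, SE 0.16). *Chordc1*, a co-chaperone of Hsp90, measured 17.4, 12.1, 14 and 24.2 CPM in EtOH_TRAP and 55.2, 36.7, 6.38 and 31.0 CPM in EtOH + ABT-888_TRAP (log2 fold change 0.93, SE 0.45). Here again mice 3, 6 and 11 lay above every EtOH mouse and mouse 10 below every EtOH mouse.

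Promoters are printed for members of the oligodendrocyte list, where all members lay above 0, and of the proteasome list, where 28 of 31 lay below 0, so that their sequences can be compared: 2 proteasome genes and 2 oligodendrocyte genes, each with the 250 bases before the start as RefSeq gives them for GRCm38.p6, 5′ to 3′ on the strand of the gene. In the proteasome promoters capitals mark CGGAAG, the core word of ETS factors, on either strand; in the oligodendrocyte promoters capitals mark ACAAAG or ACAATGG, words of SOX factors, on either strand. *Psma4* (chr9:54950609-54950858, plus strand, 64.4% G or C) held 1 match, *Psmc5* (chr11:106255935-106256184, plus strand, 53.2%) held 0, *Ermn* (chr2:58052865-58053114, minus strand, 47.2%) held 1 and *Mog* (chr17:37023399-37023648, minus strand, 46.8%) held 0.
Psma4: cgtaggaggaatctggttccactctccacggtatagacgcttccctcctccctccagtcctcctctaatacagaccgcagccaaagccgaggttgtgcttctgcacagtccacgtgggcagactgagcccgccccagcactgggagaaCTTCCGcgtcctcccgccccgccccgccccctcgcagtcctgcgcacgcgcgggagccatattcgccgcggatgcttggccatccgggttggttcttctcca
Psmc5: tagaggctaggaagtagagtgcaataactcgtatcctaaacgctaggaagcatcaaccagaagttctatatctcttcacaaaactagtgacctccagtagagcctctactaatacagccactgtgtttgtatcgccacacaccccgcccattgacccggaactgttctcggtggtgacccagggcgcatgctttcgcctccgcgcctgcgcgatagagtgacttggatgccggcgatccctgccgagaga
Ermn: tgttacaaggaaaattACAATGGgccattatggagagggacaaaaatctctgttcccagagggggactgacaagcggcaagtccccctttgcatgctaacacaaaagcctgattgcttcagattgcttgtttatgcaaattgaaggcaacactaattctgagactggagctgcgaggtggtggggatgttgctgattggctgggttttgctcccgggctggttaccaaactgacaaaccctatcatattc
Mog: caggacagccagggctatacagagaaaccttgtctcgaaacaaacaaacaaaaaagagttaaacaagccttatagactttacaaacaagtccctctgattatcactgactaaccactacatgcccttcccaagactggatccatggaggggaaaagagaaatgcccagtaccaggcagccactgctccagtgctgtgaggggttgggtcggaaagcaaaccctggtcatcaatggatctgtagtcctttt

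Promoters were found for 25 of the 31 tested proteasome genes, and 14 of them (56%) held CGGAAG, beside 24.6% of the 10451 tested transcripts with a promoter and 13.8% of all 27025 promoters. ACTTCCGG, a longer ETS word that contains CGGAAG on the other strand, was in 4 of the 25 (16%), in 5.72% of the tested and in 2.93% of all promoters. Of the 15 oligodendrocyte marker promoters, 5 (33.3%) held ACAAAG and 1 (6.67%) held ACAATGG, beside 11.4% and 1.59% of the tested and 16.5% and 3.07% of all promoters. In all, 10 motifs were searched on both strands. The antioxidant response word TGACNNNGC was in 16% of the proteasome promoters, 11.8% of the tested and 10.1% of all promoters, and its longer form TGACTCAGC in 0%, 0.249% and 0.363%. The NF-Y word CCAAT was in 40%, 36.4% and 34.5%, and the E-box word CACGTG in 4%, 8.54% and 6.05%. The pyrimidine word CTTTCC was in 16%, 23% and 22.7%, and the other pyrimidine word, TCCCTTT, in 0%, 5.59% and 6.28%. A match is a word in a sequence and not a measured binding site.

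Signaling lists, among them the insulin receptor pathway that the study followed, were centered near 0. The 51 insulin receptor pathway genes had a median of 0.04 with 32 above 0, and their mean level was 5.46 ± 0.120 log2 CPM in EtOH_TRAP and 5.44 ± 0.0708 log2 CPM in EtOH + ABT-888_TRAP (SD, n = 4 each). The members with the smallest p were *Irs4* and *Irs2*, adaptor proteins that dock to the activated receptor. The medians were 0.02 for 32 genes of mTOR control, -0.03 for 48 genes of the MAP kinase cascade and 0.00 for 23 genes of JAK-STAT signaling. *Ddit4l*, an inhibitor of mTOR, measured 1.80, 1.85, 2.20 and 3.15 CPM and then 6.00, 6.22, 3.01 and 2.12 CPM, with Control_TRAP at 13.7 ± 2.28 CPM (SD, n = 3; log2 fold change with ABT-888 0.93, SE 0.45). *Ksr2*, a scaffold of the MAP kinase cascade, measured 157 ± 18.6 and 192 ± 27.8 CPM (log2 fold change 0.29, SE 0.16).

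The study names 13 genes as those most reversed by ABT-888, and since they were chosen on these samples their direction is not independent evidence. It also ran qRT-PCR on the sequenced RNA, with each treatment set against Control. There it reports reversal for *Irs2*, *Irs4*, *Rasd1* and *Scnn1a*, and does not list *Stxbp4* or *Mapk11* among the reversed. With ABT-888 against EtOH, 6 lay above 0 and 7 below, no member lay between -0.53 and 0.55, so the list's median of -0.53 describes no common shift, 3 had an unadjusted p under 0.05 (0.966% of all transcripts did), and 0 were called. *Irs4* was the 1 member of the 13 whose groups did not overlap (1.02% of all transcripts did not), with 1.17, 0.371, 0.391 and 0.937 CPM in EtOH_TRAP and 0, 0, 0.311 and 0.182 CPM in EtOH + ABT-888_TRAP (log2 fold change -2.23, SE 1.02). In total-RNA it measured 7.28, 0.991, 0.963 and 2.30 CPM in EtOH mice and 0.553, 0.970, 0.922 and 0.665 CPM in EtOH + ABT-888 mice. EtOH mouse 2 was far above the rest and the groups overlapped there (log2 fold change -1.91). *Mapk8ip2*, a scaffold of the JNK pathway, measured 170, 216, 183 and 158 CPM and then 85.5, 106, 182 and 129 CPM, where mouse 10 lay within the EtOH range (log2 fold change -0.53, SE 0.22; Control_TRAP 88.2 ± 7.36 CPM).

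*Irs2* measured 210, 186, 152 and 89.8 CPM in EtOH_TRAP and 94.1, 93.7, 165 and 74.0 CPM in EtOH + ABT-888_TRAP, with Control_TRAP at 65.8 ± 2.02 CPM (log2 fold change with ABT-888 -0.58, SE 0.28). EtOH mouse 9 lay with the second group and mouse 10 with the first. *Rasd1*, a small GTPase induced by glucocorticoids, measured 13.1 ± 2.65 and 8.68 ± 4.10 CPM beside 3.14 ± 2.06 CPM in Control_TRAP, and *Scnn1a*, a sodium channel subunit, 6.40 ± 1.44 and 4.32 ± 3.36 CPM beside 2.67 ± 0.344. *Ptpn6*, a phosphatase of immune signaling, and *Pla2g3*, a secreted phospholipase, had log2 fold changes of -1.16 (SE 0.71) and -0.83 (SE 0.73). Among those above 0, *Hltf*, a helicase-like DNA repair factor, measured 5.46, 5.01, 7.91 and 16.5 CPM and then 20.8, 21.2, 5.39 and 15.5 CPM (log2 fold change 0.84, SE 0.45; Control_TRAP 22.9 ± 4.55 CPM). *Rngtt*, the mRNA capping enzyme, and *Stxbp4*, a syntaxin-binding protein of insulin-stimulated trafficking, both had a log2 fold change of 0.55 (SE 0.33 and 0.36). *Mycn*, a transcription factor, and *Mapk11*, a p38 kinase, had 0.89 (SE 0.71) and 0.80 (SE 0.70), and without mouse 3 *Mapk11* was at -0.03.

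**Figure D4:**
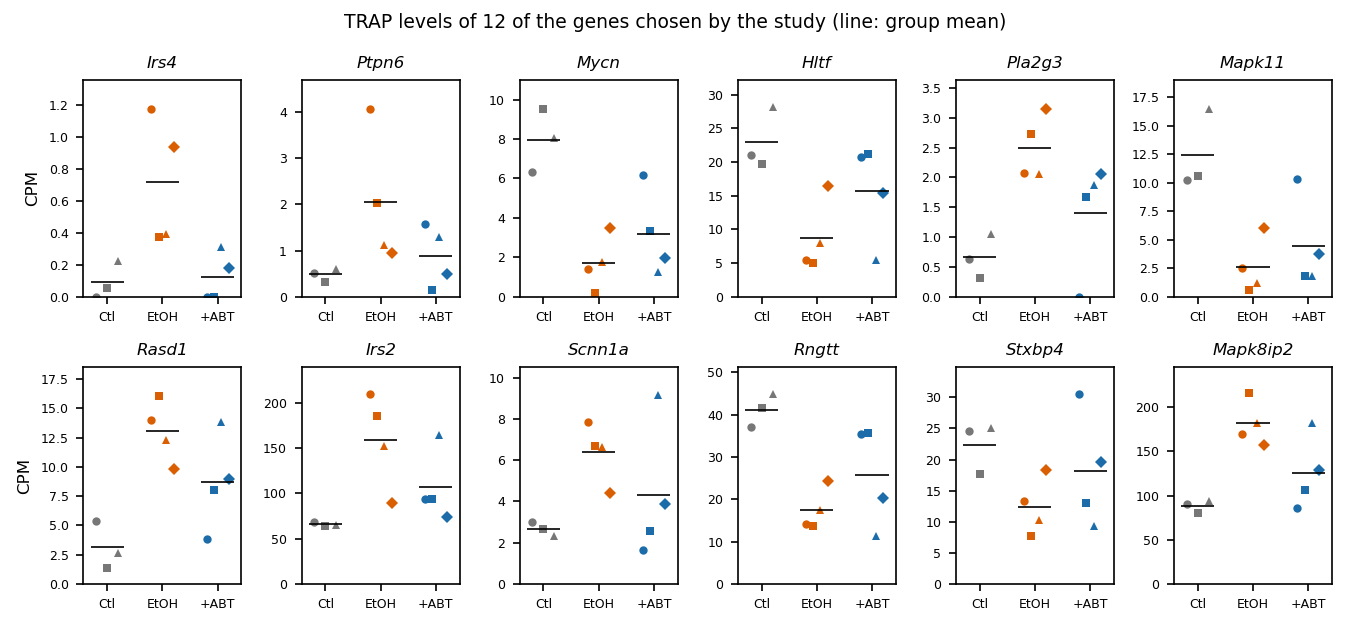
CPM (y axis, from 0) of 12 of the 13 genes chosen by the study in each TRAP library of Control (grey), EtOH (orange) and EtOH + ABT-888 (blue), with a line at the group mean. The blue points are widely spread, as in *Irs2*, where mouse 10 (triangle) lies at 165 CPM and the other 3 mice between 74.0 and 94.1 CPM.

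The single transcripts with the smallest p among those without overlap were mostly of low or moderate level. The 8 protein-coding transcripts on the higher side included *Hsd17b11* (chr5:103989762-104021919), a steroid dehydrogenase of lipid droplets, at 20.7, 16.5, 21.4 and 22.7 CPM in EtOH_TRAP and 35.0, 36.5, 27.2 and 28.6 CPM in EtOH + ABT-888_TRAP (log2 fold change 0.64, SE 0.20, 95% interval 0.21 to 1.07). *Slc16a12* (chr19:34668403-34747289), a transporter of the monocarboxylate family, measured 0, 0.185, 0.195 and 0.201 CPM and then 1.81, 1.52, 0.415 and 1.03 CPM, and had the smallest p of all transcripts (log2 fold change 2.90, SE 0.91; unadjusted p = 0.00568 in edgeR's quasi-likelihood test). *Ky* (chr9:102505750-102546239), a peptidase known for its part in muscle, measured 3.67 ± 1.56 and 8.61 ± 2.47 CPM (log2 fold change 1.22, SE 0.40), and in total-RNA its log2 fold change was 1.16. *Cyp2s1* (chr7:25802475-25816913), a cytochrome P450, measured 9.84 ± 2.92 and 17.4 ± 4.26 CPM (log2 fold change 0.82, SE 0.28), and 0.54 in total-RNA. *Atg16l2*, an autophagy gene, had 0.91 (SE 0.34), *Aif1l*, an actin-binding protein, 2.82 (SE 0.99) and *Adgrl4*, described above, 1.57. *Frem1*, an extracellular matrix protein, held 2 reads in EtOH_TRAP and 21 in EtOH + ABT-888_TRAP, a ratio of 13.6 with a counting interval of 3.33 to 120. Mouse 6 held 11 of the 21 reads, and without it the ratio was 7.37 (1.57 to 69.2).

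On the lower side, *Sec13* (chr6:113728062-113740743), a coat protein of vesicles that leave the endoplasmic reticulum, measured 49.7, 39.4, 44.9 and 42.8 CPM in EtOH_TRAP and 32.1, 26.8, 28.5 and 34.1 CPM in EtOH + ABT-888_TRAP (log2 fold change -0.54, SE 0.18, 95% interval -0.92 to -0.16). In total-RNA its log2 fold change was -0.05. *Cited4* (chr4:120666572-120667820), a transcriptional co-activator, measured 11.1, 10.7, 13.7 and 10.9 CPM and then 7.26, 6.67, 6.64 and 7.15 CPM, the tightest second group of the set (log2 fold change -0.74, SE 0.25). *Lmo7* (chr14:101729957-101934710), an actin-associated junction protein, measured 212 ± 28.6 and 155 ± 19 CPM (log2 fold change -0.45, SE 0.16), and its total-RNA log2 fold change was -0.49 (unadjusted p = 0.00309, edgeR's quasi-likelihood test). *Cluh* (chr11:74649495-74670847), which binds mRNAs of mitochondrial proteins, measured 119 ± 13.2 and 86.8 ± 13.7 CPM (log2 fold change -0.46, SE 0.17). *Mpp3*, a membrane scaffold, had -0.49 (SE 0.18), *Matn2*, a matrix protein, -0.58 (SE 0.21), *Slc16a11*, another monocarboxylate transporter, -1.31 (SE 0.42), and *Capn3*, a calcium-dependent protease, -3.25 (SE 1.14) at under 2 CPM. These 16 were taken for their lack of overlap and small p, so their separation describes them and does not test them.

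**Figure D5:**
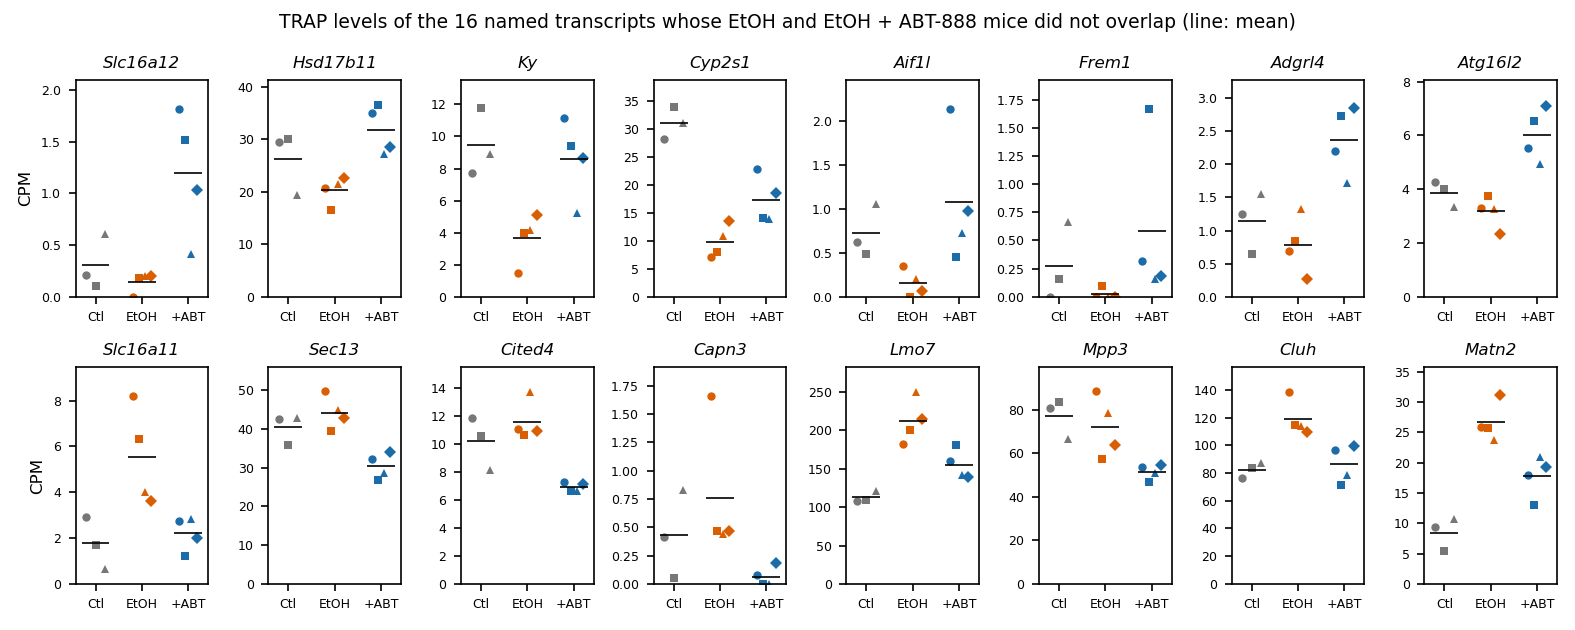
CPM (y axis, from 0) of 16 protein-coding transcripts in each TRAP library of Control (Ctl, grey), EtOH (orange) and EtOH + ABT-888 (+ABT, blue), with a line at the group mean. The upper row holds the 8 on the higher side and the lower row the 8 on the lower side; *Sec13* runs from 26.8 to 34.1 CPM with ABT-888 and from 39.4 to 49.7 CPM without it.

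Of 245 lincRNAs tested, 61.6% lay above 0, where 50.7% of protein-coding transcripts did, the median was 0.14 (-0.05 in total-RNA), and 7 had an unadjusted p under 0.05, all higher, beside 0.618% of all transcripts. *Malat1* and *Neat1*, which are retained in nuclear speckles and paraspeckles, were named after their values were seen. *Malat1* measured 673 ± 190 CPM in EtOH_TRAP and 1118 ± 290 CPM in EtOH + ABT-888_TRAP (SD, n = 4 each; log2 fold change 0.73, SE 0.24), and *Neat1* measured 2.86 ± 2.02 and 8.11 ± 3.32 CPM (log2 fold change 1.5, SE 0.52). In total-RNA their log2 fold changes were -0.16 and 0.12. Like the glial markers, both genes were highest in mice 3 and 11; the part of the marker levels in this result was not tested. Of 648 pseudogenes, 45.4% lay above 0.

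Genes of the extracellular matrix had a median of 0.24 with 30 of 47 above 0, which was -0.03 without mouse 3 and 0.50 without EtOH mouse 2. *Fbln5*, an elastic fiber protein, did not overlap at 2.01 ± 0.448 and 3.99 ± 0.103 CPM (SD, n = 4 each; log2 fold change 0.98, SE 0.39). *Adamts9*, a matrix protease, had 1.16 (SE 0.43) in TRAP and 0.97 in total-RNA. Over the 18 matrix genes with at least 5 CPM the median was 0.09. The 11 genes of ethanol metabolism had a median of 0.17 with 8 above 0, which was 0.05 without mouse 11 and 0.31 without EtOH mouse 9, and 0.13 in total-RNA. Antioxidant genes (0.04), cholesterol synthesis (0.01), axon guidance (0.02), neurotrophic factors (0.00), opioid genes (0.01), serotonin and dopamine receptors (0.01), chromatin enzymes (-0.00) and splicing regulators (-0.01) were centered at 0. So were interferon-stimulated genes (-0.03) and the NF-kappaB pathway (-0.04), although the interferon list was wide, from -0.64 to 0.40 between its quartiles. Without EtOH mouse 2 these medians were 0.19 and 0.17, and without EtOH mouse 8 they were -0.15 and -0.12. *Ifit3*, an interferon-induced antiviral protein, measured 0.958 ± 1.09 and 0.179 ± 0.212 CPM (log2 fold change -2.15, SE 1.16). Mitochondrially encoded genes had a median of 0.17, which was -0.11 without mouse 3, -0.04 without EtOH mouse 5 and 0.54 without EtOH mouse 2. In this list *mt-Nd6*, a complex I subunit, measured 56.1 ± 24.0 and 75.5 ± 23.4 CPM. The 7 choroid plexus and ependymal markers had a median of -0.15, which was 0.07 without mouse 6 or without mouse 10, and *Ttr*, the thyroid hormone carrier of the choroid plexus, was high in mouse 3 alone (7.26 CPM, against 0.152 to 1.45 in the other 7).

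In the total-RNA of the same mice ABT-888 against EtOH also gave 0 called transcripts of 14072, with 269 at an unadjusted p under 0.05 (1.91%; edgeR's quasi-likelihood test) and 195 whose groups did not overlap (1.39%), and exactTest called 2. The median absolute log2 fold change was 0.10 there and 0.15 in TRAP. Mice of one group also differed less there, with a median SD of log2 CPM of 0.25 beside 0.39 in TRAP. The part of this spread in the size of the fold changes was not tested. Only 8 of the 49 lists passed 0.1 in total-RNA, among them microglial (0.32) and mural (0.29) markers. The mean level separated the groups there in 1 of 49 lists, ethanol metabolism, at 4.68, 4.73, 4.73 and 4.61 log2 CPM in EtOH mice and 4.79, 4.81, 4.74 and 4.91 log2 CPM in EtOH + ABT-888 mice, where mouse 10 lay next to the EtOH range. Across the 14072 transcripts the log2 fold changes of TRAP and total-RNA had a Pearson's r of 0.326 and a Spearman's rho of 0.310; both are computed from the same 8 mice, and transcripts are not independent replicates. The interaction of ABT-888 with sample type, which asks whether the difference itself differed between TRAP and total-RNA, called 0 of 14072 (0.881% at an unadjusted p under 0.05), as did the fit with a term for each mouse.

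The sign of the difference followed the level and length of transcripts weakly. In the decile with the lowest level, with a median of 0.80 CPM, the median log2 fold change was 0.16, and in the decile with the highest level, with a median of 284 CPM, it was -0.02. By exon length, 46.0% of the shortest decile lay above 0 and 63.4% of the longest decile, with medians of -0.03 and 0.05.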

How the data were processed

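Gene counts of 22 libraries (TRAP and total-RNA of 11 mice) were used as the authors deposited them: reads were aligned to mm10 with STAR and counted per ENSEMBL gene with featureCounts by the authors, and the counts are not normalized. Strand settings and the treatment of multimapping reads are not given in the sources used here, so antisense and duplicated genes are uncertain. Of 39056 genes, 14072 with at least 500 counts over the 22 libraries and counts in at least 3 were tested. Groups were compared in R 4.3.3 with edgeR 4.0.16 (TMM factors, quasi-likelihood test, Benjamini-Hochberg adjustment, threshold 0.05). Alternatives used edgeR's exactTest, DESeq2 1.42.0, limma 3.58.1 (voom), RLE factors, other filters, joint fits, a marker covariate and leaving out each library. CPM are counts scaled by TMM-normalized library sizes, and list levels are mean log2 CPM with a prior count of 1. Each SE is the log2 fold change fitted without a prior count, divided by the square root of the quasi-likelihood F. The 95% intervals are centered on that fold change, while the printed fold changes are edgeR's, which a prior count pulls toward 0. For differences near 0 such an SE can be too small, as in *Aldh3a2* (0.056, beside a median of 0.267 over all transcripts). Scripts were tested on simulated data.

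The members and gene lists were chosen with earlier results of these data known. Genes named are the study's genes of largest reversal, the 8 protein-coding genes of smallest p in each direction whose groups did not overlap, and the leading or most abundant members of lists; *Malat1* and *Neat1* were added after their values were seen. TRAP groups share no mice. TRAP and total-RNA of the same mouse deviated together from their group means (r = 0.122 to 0.63 in 8 mice), so the interaction was also fitted with the mouse as a block. The labels do not say that mice were littermates or share a day. Intervals on low counts cover counting error only. Values of some list members are not reported here.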

Additional observations from a re-analysis of the deposited data

Results flagged for a closer look

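In groups of 4, 1 library lay far from the other 3 in 14 of 182 sets of values examined (7.69%). The gap test used flags about 1 in 20 sets of normally distributed values. CPM from few reads, and genes picked for their values, need not follow that rate, so no excess is read from the count. EtOH mouse 2 held 5 of them: *Slc16a12* was at 0 CPM (0.185 to 0.201 in the other 3), *Capn3* at 1.66 CPM, *Bcas1*, a myelin-associated gene, at 11.1 CPM (3.28 to 3.76), *Cd38* at 3.25 CPM and *Lhx6* at 15.8 CPM. In the other EtOH mice, *Cited4* was at 13.7 CPM in mouse 8, *Frem1* at 0.0927 CPM in mouse 5 and *Malat1* at 388 CPM in mouse 9 (753 to 786 in the other 3).

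Among mice given ABT-888, *Egr1* was at 466 CPM in mouse 3 (168 to 211 in the other 3), *Frem1* at 1.67 CPM in mouse 6, and *Kcnj8* at 1.03 CPM and *Grin2b* at 1236 CPM in mouse 11 (1583 to 1619 for *Grin2b* in the other 3). The mean level of the proteasome list was 6.59 log2 CPM in mouse 10 and 6.24 to 6.28 in the other 3. *Gm42418* took 2.17% of the reads of mouse 6 and 0.0956% to 0.0969% in the other 3.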

How the results depend on the processing

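The count of 0 called transcripts with ABT-888 in TRAP held under every alternative run. The number at an unadjusted p under 0.05, 136, was 730 without the filter, 268 in one fit of 11 TRAP libraries, 778 in one fit of 22 libraries, 276 with the glial and vascular marker covariate, and 100 to 914 as each library was left out. The causes were not tested. With *Gm42418* removed before normalization, chosen after seeing the data, it was 136. exactTest called 2 transcripts in total-RNA. EtOH_TRAP against Control_TRAP gave 1372 with exactTest and 84 to 1550 as each library was left out. Of 49 lists, 15 passed 0.1 in TRAP, 8 in total-RNA and 11 to 22 as each library was left out. Of these 15, 10 kept the sign of their median in all 8 fits without a library, as did 13 of the 49. The sign turned for *Parp1* without EtOH + ABT-888_TRAP replicate 3 (-0.108), EtOH_TRAP replicate 5 (-0.0337) or replicate 8 (-0.0783), for *Parp2* without EtOH + ABT-888_TRAP replicate 6 (-0.0601) or EtOH_TRAP replicate 8 (-0.0386), and for *Mapk11* without EtOH + ABT-888_TRAP replicate 3 (-0.0341). Over the 8 fits *Parp1* ran from -0.108 to 0.489, *Parp2* from -0.0601 to 0.308 and *Mapk11* from -0.0341 to 1.66. With the mouse as a replicate block the interaction called 0, as without it, and 278 transcripts had an unadjusted p under 0.05. TRAP depth of 6570957 to 22002618 reads limits genes under 1 CPM most.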
